A study of Mus musculus with 7 samples.

Results

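The proximal signalling chain of the T cell receptor was followed in 7 arrays of sorted mouse thymocytes, through a fixed set of 9 genes: the CD3 chains Cd3d, Cd3e, Cd3g and Cd247, the kinases Lck and Zap70, the adaptors Lat and Lcp2, and the surface regulator Cd5. Probe sets that carry exactly 1 gene symbol were used, and 8 of the 9 genes had at least 1. Lck was not analysed here. The 8 genes were read by 14 probe sets, and each of the 14 lay at or above the intensity filter of 82.0 in 7 of 7 arrays, so the 8 genes entered the test among 10874 genes in all. The value of a gene is that of its brightest probe set, and its intensity can be compared between arrays but not with that of another gene.

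The 3 groups came from thymi of mice aged 4 to 6 weeks on a C57BL/6J background, and every array held cells of several mice pooled. Luxoid NKT (3 arrays) were stage 1 NKT, sorted as CD1d tetramer+ CD24low CD44- NK1.1-, from mice that carried both the Valpha14 T cell receptor transgene (Valpha14 tg) and the Luxoid mutation, labelled PLZF-deficient. Stage 1 NKT (2 arrays) were sorted in the same way from Valpha14 tg mice without that mutation. CD4SP thymocytes (2 arrays) came from wild-type mice, although 1 of their labels repeats the sort of the NKT. Both NKT groups thus carry the transgene and the CD4SP do not, so cell type and transgene cannot be told apart in either comparison with CD4SP. The promoter of the transgene is not given in the sources used here.

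The T cell receptor has no enzyme of its own. Its CD3 and zeta chains carry tyrosine motifs that Lck phosphorylates, the kinase ZAP-70 docks on them, and ZAP-70 in turn phosphorylates the adaptors LAT and SLP-76, on which phospholipase C and Ras activators assemble. CD5 damps this chain, and its surface level on thymocytes is known to be set by the strength of receptor signalling. In the thymus NKT cells are selected through a semi-invariant receptor on CD1d carried by other thymocytes, and PLZF, the product of Zbtb16, directs their effector programme.

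The arrays went with their labels in Zbtb16, Cd4 and Cd24a. Zbtb16 read 1857, 2774 and 2645 in Luxoid NKT and 2751 and 3488 in stage 1 NKT, against 87.3 and 61.8 in CD4SP. Its transcript was thus present in Luxoid NKT, at a difference from stage 1 NKT of -0.38 ± 0.23 (SE) on the log2 scale with a limma adjusted p of 0.607, and protein was not measured. Cd4 read 2164, 2359.9 and 2164 in Luxoid NKT and 1888 and 2232 in stage 1 NKT, against 5824 and 6754 in CD4SP. Cd24a, which the NKT sort selects as low, lay between 14.1 and 57.1 in the 5 NKT arrays, against 246 and 239 in CD4SP. The T cell marker list, the sum of 7 genes, ran from 36051 to 36429.5 in Luxoid NKT and from 33339 to 33777 in stage 1 NKT. In CD4SP it ran from 35436 to 37244. Of the 7, 1 was called higher and 0 lower in Luxoid than in stage 1 NKT, where 0.901% and 0.653% of all genes tested were. In each comparison with CD4SP 0 were called higher and 1 lower. Over all genes tested the shares against CD4SP were 11.3% higher and 5.51% lower in Luxoid NKT. In stage 1 NKT they were 10.8% and 4.08%. The same shares apply to the marker lists below, which hold few tested genes. Under the filter in every array were 6 of 6 myeloid markers and 3 of 3 measured erythroid markers. Markers of immature double-positive thymocytes moved with the comparison to CD4SP: their sum over 6 measured genes was 384 to 506 in Luxoid NKT and 283 to 295 in stage 1 NKT, against 909.7 to 1033 in CD4SP, with Rag1, Rag2 and Ptcra under the filter in every array. Of the 3 that were tested, Cd8a, Cd8b1 and Dntt, 2 were lower in Luxoid NKT than in CD4SP, 3 were lower in stage 1 NKT than in CD4SP, and 1 was higher in Luxoid than in stage 1 NKT. That gene was Cd8a, at 144, 184 and 152 in Luxoid NKT against 82.3 and 93.6 in stage 1 NKT (0.86 ± 0.16, adjusted p 0.0342). Genes also used as gamma delta T cell markers were higher in NKT: their sum over 3 measured genes, most of it Maf, was 1273 to 1994 in Luxoid NKT and 3106 to 3113 in stage 1 NKT, against 246 to 403 in CD4SP, and 2 of 2 tested were called higher in each comparison with CD4SP. The sum of 4 measured B cell markers was 302 to 412 in Luxoid NKT and 333 to 369 in stage 1 NKT, against 292 to 303 in CD4SP. The sum of 5 measured NK cell markers was 1064 to 1281 in Luxoid NKT and 1194 to 1299.8 in stage 1 NKT, against 1468 to 1480.2 in CD4SP. In each of these 2 lists, of 3 tested genes, 1 was called higher and 1 lower in each comparison with CD4SP and 0 between Luxoid and stage 1 NKT. Of thymic epithelium markers, 0 of 2 tested were called in any comparison. The part of other cells in the results below was not tested. In bulk samples, fewer cells of a type and less RNA per cell cannot be told apart. The pools also differed in sex: Kdm5d, a Y-linked gene, read 8.28, 1745 and 758 in Luxoid NKT and 6.49 and 1120.4 in stage 1 NKT, against 11.7 and 2331 in CD4SP, so that arrays numbered 1 lacked its signal and arrays numbered 2 carried it. Luxoid replicate 3 and stage 1 NKT replicate 2 carried Xist beside it, at 5426 and 3888.

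The promoters of the 3 genes of the chain whose values lay below those of CD4SP in both NKT groups with the largest differences, Cd5, Lat and Cd247, are shown to set their sequence beside their levels. Each window holds 250 bases before and 50 after a start site of RefSeq, on GRCm38.p6 and 5′ to 3′ on the strand of the gene: chr19:10738925-10739224 on the minus strand for Cd5, chr7:126369519-126369818 on the minus strand for Lat and chr1:165788431-165788730 on the plus strand for Cd247. Capitals mark GGAAGT (an ETS core), TGTGGT (a RUNX core) and CAGGTG (an E protein box), searched on both strands, so that a match on the opposite strand stands as the reverse complement. No 2 matches overlap in these windows.
Cd5: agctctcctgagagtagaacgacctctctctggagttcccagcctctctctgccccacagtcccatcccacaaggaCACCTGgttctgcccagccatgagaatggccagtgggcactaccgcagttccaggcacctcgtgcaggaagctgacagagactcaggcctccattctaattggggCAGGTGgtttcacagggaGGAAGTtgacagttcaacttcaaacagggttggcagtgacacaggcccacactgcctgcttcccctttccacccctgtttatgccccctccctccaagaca
Lat: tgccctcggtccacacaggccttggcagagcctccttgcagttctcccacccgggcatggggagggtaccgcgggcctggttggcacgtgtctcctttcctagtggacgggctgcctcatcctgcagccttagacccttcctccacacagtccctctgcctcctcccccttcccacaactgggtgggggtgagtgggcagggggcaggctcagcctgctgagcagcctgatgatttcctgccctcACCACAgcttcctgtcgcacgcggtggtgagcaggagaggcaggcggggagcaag
Cd247: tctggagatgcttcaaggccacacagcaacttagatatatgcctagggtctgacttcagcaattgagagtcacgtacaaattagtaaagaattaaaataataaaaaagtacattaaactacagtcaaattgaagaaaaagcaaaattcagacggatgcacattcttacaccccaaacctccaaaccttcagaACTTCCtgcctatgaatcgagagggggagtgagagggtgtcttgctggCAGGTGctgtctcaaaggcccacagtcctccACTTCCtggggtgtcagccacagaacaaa
The Cd5 window held 1 ETS core and 2 E protein boxes, the Lat window 1 RUNX core, and the Cd247 window 2 ETS cores and 1 E protein box. Over the 8 genes, which have 10 such windows, GGAAGT stood in 5 windows, TGTGGT in 2 and CAGGTG in 7. Of 32851 windows of the same length over all genes, 23.8%, 16.8% and 20.2% held them. These are matches of letters and not sites of binding.

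Between Luxoid and unmutated stage 1 NKT, which differ in the Luxoid mutation, none of the 8 chain genes passed the test. limma on log2 intensities, with Benjamini-Hochberg adjustment over all 10874 genes, called 0 of 8 at an adjusted p under 0.05, and 0 of 8 had an unadjusted p under 0.05, as 11.6% of all genes tested did. Over all genes tested 1.55% were called, 0.901% higher and 0.653% lower (98 and 71 genes). Of the 14 probe sets, each tested as its own feature among 20360, 0 passed, where 1.15% of all did. The differences of the 8 genes ran from -0.14 for Lcp2 to 0.24 for Cd5 on the log2 scale, with a median of -0.0066 beside -0.03 over all genes. The 95% intervals are given with each gene below, and they do not show that the levels were equal.

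Against CD4SP, Cd5 was the gene of the chain that stood lowest in both NKT groups. It was 1.84-fold lower in Luxoid NKT and 2.17-fold lower in stage 1 NKT, and both differences passed the test. Lat was 1.43-fold lower in Luxoid NKT and passed the test, and its difference of -0.42 on the log2 scale in stage 1 NKT did not. In counts, 2 of 8 genes were lower in Luxoid NKT than in CD4SP and 0 higher, where 16.8% of all genes tested were called, 11.3% higher and 5.51% lower. In stage 1 NKT, 1 of 8 was lower and 0 higher, where 14.9% of all genes were called, 10.8% higher and 4.08% lower. The median of the 8 differences was -0.16 in Luxoid NKT and -0.23 in stage 1 NKT, beside 0.02 and 0.06 over all genes. The 2 comparisons share the same 2 CD4SP arrays, so they are not independent of each other.

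**Figure D1:**
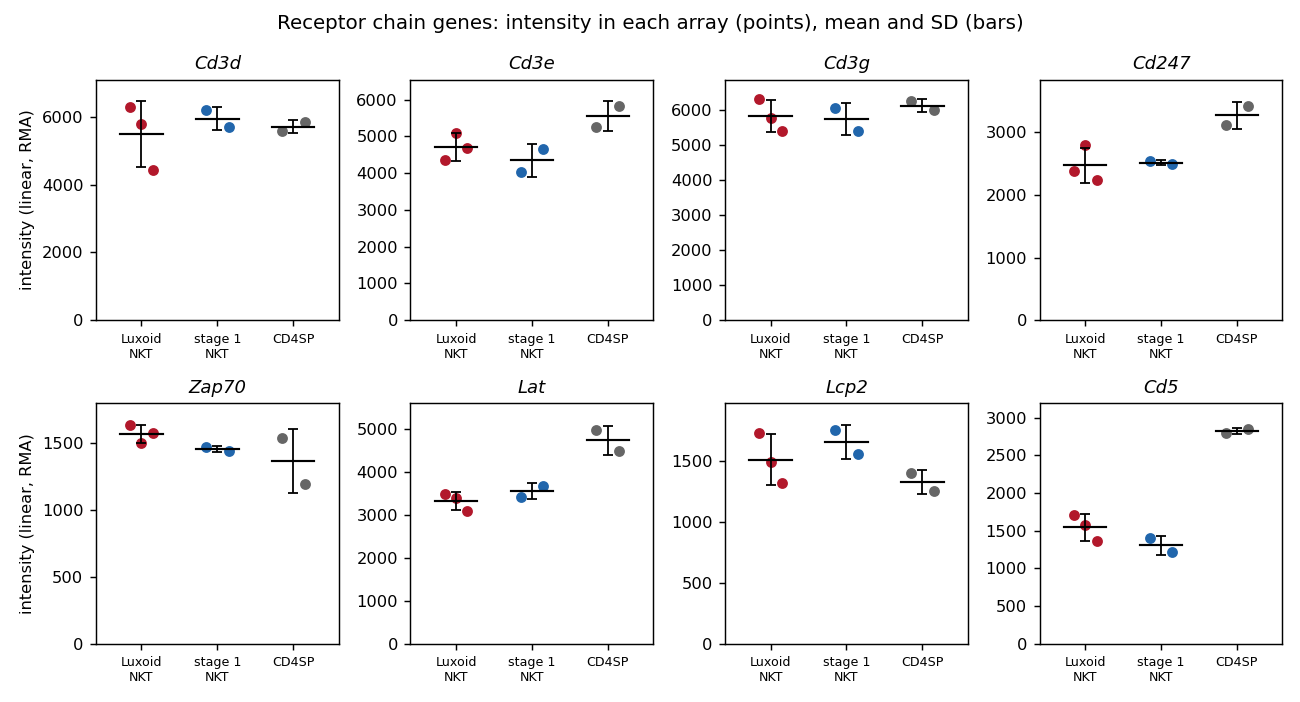
Linear RMA intensity (vertical axis, from 0) of each of the 8 genes at its brightest probe set in Luxoid NKT (3 arrays), stage 1 NKT (2) and CD4SP (2); points are arrays, horizontal lines group means and bars the SD. For Cd5 the 5 NKT arrays lie between 1215 and 1706, against 2792 and 2854 in CD4SP, while for Cd3d and Cd3g the 3 groups overlap.

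Cd3d encodes the CD3 delta chain, which pairs with CD3 epsilon in the receptor complex. It read 6281, 5803 and 4417 in Luxoid NKT and 6200.0 and 5704 in stage 1 NKT, against 5578 and 5851 in CD4SP. The groups overlapped, and the lowest of the 7 values was that of Luxoid replicate 3. The log2 difference was -0.13 ± 0.17 (SE) between Luxoid and stage 1 NKT (95% interval -0.52 to 0.26, limma adjusted p 0.854). It was -0.07 ± 0.17 between Luxoid NKT and CD4SP (adjusted p 0.830) and 0.06 ± 0.19 between stage 1 NKT and CD4SP (adjusted p 0.865), so no order of the 3 groups stood out from the spread.

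Cd3g encodes the CD3 gamma chain, the other partner of CD3 epsilon. It read 6299.8, 5759 and 5384 in Luxoid NKT and 6062 and 5409.9 in stage 1 NKT, against 6246 and 5996 in CD4SP, and each group overlapped the other two. Its difference was 0.02 ± 0.14 between Luxoid and stage 1 NKT (95% interval -0.29 to 0.33, adjusted p 0.979). Against CD4SP it was -0.08 ± 0.14 in Luxoid NKT (adjusted p 0.757) and -0.10 ± 0.15 in stage 1 NKT (adjusted p 0.714).

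Cd3e encodes the CD3 epsilon chain, present in both CD3 dimers of the complex. It read 4352, 5097 and 4671 in Luxoid NKT and 4035 and 4659.6 in stage 1 NKT, against 5265 and 5837 in CD4SP. The NKT groups overlapped and all 5 NKT values lay under both CD4SP values. The differences from CD4SP were -0.24 ± 0.14 in Luxoid NKT (95% interval -0.57 to 0.09, adjusted p 0.310) and -0.35 ± 0.16 in stage 1 NKT (-0.71 to 0.0042, adjusted p 0.176), neither past the threshold. Between Luxoid and stage 1 NKT the difference was 0.12 ± 0.14 (-0.21 to 0.44, adjusted p 0.841).

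The genes Cd3g, Cd3d and Cd3e neighbour each other on the chromosome that also carries Zbtb16, within 10 Mb of it. Of 138 tested genes in that stretch, 4 were higher and 0 lower in Luxoid than in stage 1 NKT, and no CD3 gene was among the 4. Over all 10874 genes tested, 98 (0.901%) were higher and 71 (0.653%) lower.

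Cd247 encodes the zeta chain, the homodimer with the most tyrosine motifs in the complex and a main docking place of ZAP-70. Its brightest probe set read 2387, 2792 and 2241 in Luxoid NKT and 2549 and 2488 in stage 1 NKT, against 3115 and 3428 in CD4SP. The NKT groups overlapped, and all NKT values lay under both CD4SP values. The difference from CD4SP was -0.41 ± 0.15 in Luxoid NKT (95% interval -0.74 to -0.08, adjusted p 0.0960) and -0.38 ± 0.16 in stage 1 NKT (-0.74 to -0.01, adjusted p 0.158). Between Luxoid and stage 1 NKT it was -0.03 ± 0.15 (-0.36 to 0.30, adjusted p 0.965).

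Cd247 had 3 further, dimmer probe sets, and these gave larger differences from CD4SP in Luxoid NKT than the brightest did. The second read 1098, 837 and 656 in Luxoid NKT and 1098 and 850.2 in stage 1 NKT, against 1255 and 1408 in CD4SP. The third read 576, 857 and 709 in Luxoid NKT and 727 and 947 in stage 1 NKT, against 922 and 1432 in CD4SP. The fourth read 262, 247 and 277 in Luxoid NKT and 319.8 and 314 in stage 1 NKT, against 372 and 495 in CD4SP. In the fourth the 3 groups did not overlap, with Luxoid NKT lowest and CD4SP highest, while in the third the stage 1 NKT and CD4SP values interleaved. Of all genes tested, 26.7% were apart between Luxoid and stage 1 NKT. Against CD4SP 46.0% were apart in Luxoid NKT and 60.2% in stage 1 NKT. In a limma fit of 20360 probe sets, each tested as its own feature, the fourth differed by -0.71 ± 0.16 between Luxoid NKT and CD4SP and passed the test (adjusted p 0.0224; 14.1% of probe sets were called). In stage 1 NKT it differed from CD4SP by -0.44 ± 0.18 and did not pass (adjusted p 0.163, where 11.7% of probe sets were called). Between Luxoid and stage 1 NKT the fourth differed by -0.27 ± 0.16 and did not pass (adjusted p 0.640, where 1.15% were called). In Luxoid NKT the second differed from CD4SP by -0.65 ± 0.23 (adjusted p 0.0995) and the third by -0.71 ± 0.25 (adjusted p 0.0979), and neither passed. With the mean of its 4 probe sets as the value of the gene, Cd247 differed by -0.62 between Luxoid NKT and CD4SP and passed the test (adjusted p 0.0137).

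Zap70 encodes the kinase that docks on the phosphorylated CD3 and zeta chains. Its brightest probe set read 1631, 1496 and 1569.7 in Luxoid NKT and 1469 and 1434 in stage 1 NKT, against 1533 and 1192 in CD4SP. Luxoid NKT values all lay above the stage 1 NKT values, as in 10.1% of genes tested (the groups were apart in either direction in 26.7%), and both groups overlapped CD4SP. The differences were 0.11 ± 0.15 between Luxoid and stage 1 NKT (95% interval -0.23 to 0.45, adjusted p 0.856), 0.21 ± 0.15 between Luxoid NKT and CD4SP (adjusted p 0.391) and 0.10 ± 0.16 between stage 1 NKT and CD4SP (adjusted p 0.717).

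The 3 probe sets of Zap70 disagreed on the direction against CD4SP. The second read 737, 653 and 696 in Luxoid NKT and 709 and 673 in stage 1 NKT, against 556 and 457 in CD4SP, so that every NKT value was the higher. The third, dimmest, read 129, 171 and 163 in Luxoid NKT and 163 and 153 in stage 1 NKT, against 169 and 232 in CD4SP. The second differed from CD4SP by 0.46 ± 0.15 in Luxoid NKT (adjusted p 0.0798) and by 0.45 ± 0.16 in stage 1 NKT (adjusted p 0.120). The third differed by -0.37 ± 0.19 (adjusted p 0.259) and -0.32 ± 0.21 (adjusted p 0.373) in the same order of comparisons. None passed the threshold, and no direction is given for Zap70.

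**Figure D2:**
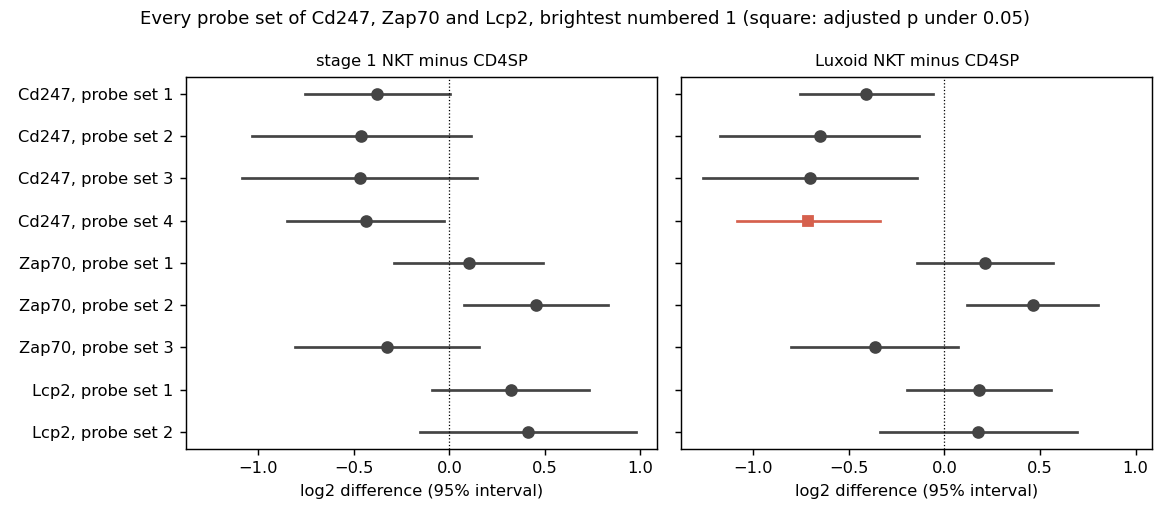
Log2 difference with its 95% interval (horizontal axis) at every probe set of Cd247, Zap70 and Lcp2, brightest numbered 1, for stage 1 NKT minus CD4SP and Luxoid NKT minus CD4SP; the square passes the threshold. All Cd247 points lie left of 0, the fourth reaching -0.71 in Luxoid NKT, whereas the Zap70 points lie on both sides of 0.

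Lat encodes the membrane adaptor that ZAP-70 phosphorylates and on which the downstream complexes assemble. It read 3475, 3394 and 3089 in Luxoid NKT and 3415 and 3677 in stage 1 NKT, against 4979 and 4486 in CD4SP. The 2 NKT groups overlapped, and every NKT value lay below both CD4SP values. In Luxoid NKT the difference from CD4SP was -0.51 ± 0.13 and passed the test (95% interval -0.82 to -0.20, adjusted p 0.0335). Leaving out any single array of the 7 ended this call, with adjusted p from 0.0522 to 0.183. In stage 1 NKT the difference was -0.42 ± 0.15 (-0.75 to -0.08, adjusted p 0.0993), and between Luxoid and stage 1 NKT it was -0.10 ± 0.13 (-0.40 to 0.21, adjusted p 0.860).

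Lcp2 encodes SLP-76, the cytosolic adaptor that joins LAT. It read 1727, 1488 and 1315 in Luxoid NKT and 1755 and 1558 in stage 1 NKT, against 1397 and 1256 in CD4SP. Luxoid NKT overlapped both other groups, and the stage 1 NKT values lay above the CD4SP values. The difference was -0.14 ± 0.16 between Luxoid and stage 1 NKT (95% interval -0.50 to 0.22, adjusted p 0.820), 0.18 ± 0.16 between Luxoid NKT and CD4SP (adjusted p 0.497) and 0.32 ± 0.17 between stage 1 NKT and CD4SP (-0.08 to 0.72, adjusted p 0.262). Its second probe set, at 233, 176 and 188 in Luxoid NKT and 298 and 181 in stage 1 NKT against 176 and 173 in CD4SP, gave the same signs without passing the test.

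Cd5 encodes the scavenger-receptor family protein that sits with the receptor and restrains its signal. It read 1706, 1568 and 1358 in Luxoid NKT and 1396 and 1215 in stage 1 NKT, against 2792 and 2854 in CD4SP. The highest NKT value lay well under the lower CD4SP value, while the 2 NKT groups overlapped. The group means were 1544 ± 175 in Luxoid NKT (SD, n = 3) and 1305 ± 128 in stage 1 NKT (SD, n = 2), against 2823 ± 43.6 in CD4SP (SD, n = 2). The difference from CD4SP was -0.88 ± 0.15 in Luxoid NKT (95% interval -1.22 to -0.54, limma adjusted p 0.00484) and -1.12 ± 0.16 in stage 1 NKT (-1.49 to -0.74, adjusted p 0.00293). Both calls held under each of 18 other settings, with adjusted p of at most 0.0467 and 0.0331. Luxoid NKT lay 0.24 ± 0.15 above stage 1 NKT, which did not pass the test (-0.10 to 0.58, adjusted p 0.619).

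**Figure D3:**
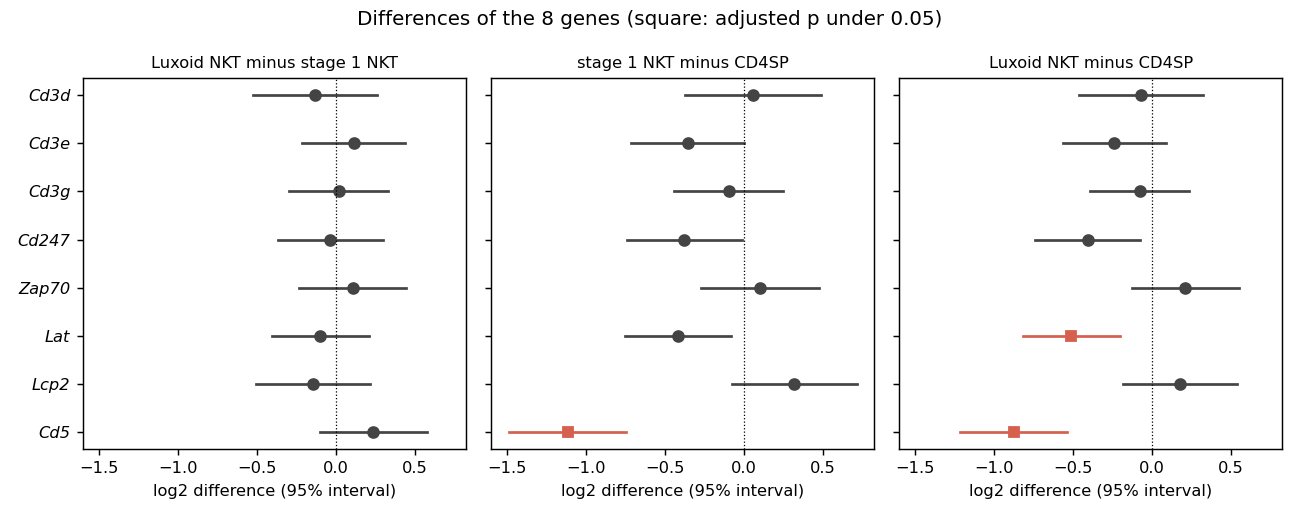
Log2 difference with its 95% interval (horizontal axis) for each of the 8 genes in the 3 comparisons; squares pass the threshold. Every interval includes 0 between Luxoid and stage 1 NKT, and Cd5 stands farthest from 0 against CD4SP, at -1.12 in stage 1 NKT and -0.88 in Luxoid NKT.

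By order of level, CD4SP stood above both NKT groups without overlap in Cd3e, Cd247, Lat and Cd5. Such lower, non-overlapping values were seen in 4 of 8 genes in each comparison with CD4SP, where 20.6% of all genes tested lay so in Luxoid NKT and 23.6% in stage 1 NKT. In the same measure 1 of 8, Lcp2, lay wholly above CD4SP in stage 1 NKT (36.6% of all genes) and 0 of 8 in Luxoid NKT (25.4%). In either direction the groups were apart in 46.0% of all genes between Luxoid NKT and CD4SP and in 60.2% between stage 1 NKT and CD4SP. Within the Luxoid group, replicate 3 was the lowest array for Cd3d, Cd3g, Cd247, Lat, Lcp2 and Cd5, and it was a pool of mixed sex. Without it and the mixed stage 1 NKT pool, which leaves 1 stage 1 NKT array assumed to vary like the other groups, Cd5 stayed past the threshold against CD4SP in both NKT groups (adjusted p 0.0358 in Luxoid NKT and 0.0438 in stage 1 NKT) and Lat did not (adjusted p 0.144 in Luxoid NKT).

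The genes whose profiles over the 7 arrays came nearest to those of Cd5 and Lat were found by the root mean square distance of centred log2 values, over 10866 other genes. For Cd5 they were Mxd4, a partner of Max that represses transcription, at 0.07, and Nsg2, at 0.08. The geometric means of Mxd4 were 2549 in Luxoid NKT and 2118 in stage 1 NKT, against 4414 in CD4SP. For Lat they were Use1, a SNARE protein of membrane traffic, at 0.04, and Lgals4, a galectin, at 0.05. Lgals4 was dim, with geometric means of 63.6 in Luxoid NKT and 67.4 in stage 1 NKT, against 93.0 in CD4SP.

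Around the chain, 4 lists of genes of the same pathway were read. They were chosen with earlier results of these data known, so their counts beside the shares over all genes are descriptive only. Of 10 tested kinases and phosphatases that switch Lck and ZAP-70 or oppose them, such as Fyn, Csk and Ptprc, limma called 0 in each of the 3 comparisons. At an unadjusted p under 0.05 there were 3 between Luxoid and stage 1 NKT, 2 between Luxoid NKT and CD4SP, and 3 between stage 1 NKT and CD4SP, where 11.6%, 29.7% and 29.1% of all genes tested had one, so that the counts against CD4SP were near the background. Fyn, the other Src-family kinase of T cells, read 2987, 2669 and 2827 in Luxoid NKT and 2666 and 3179 in stage 1 NKT, against 4355 and 3665 in CD4SP. It did not pass in any comparison. From CD4SP it differed by -0.50 ± 0.15 in Luxoid NKT (limma adjusted p 0.0531) and by -0.46 ± 0.16 in stage 1 NKT (adjusted p 0.102). Between Luxoid and stage 1 NKT Fyn differed by -0.04 ± 0.15 (adjusted p 0.953). Ptprc, named outside the rule after its value was seen, differed by -0.49 ± 0.14 between stage 1 NKT and CD4SP (adjusted p 0.0520).

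Among 17 tested adaptors and downstream enzymes, 5 had an unadjusted limma p under 0.05 between Luxoid and stage 1 NKT. Over all genes tested 11.6% did. After adjustment 1 was higher and 0 lower in Luxoid NKT, where 0.901% and 0.653% of all genes tested were. The gene was Rasgrp1, the exchange factor that loads Ras after diacylglycerol is made downstream of LAT. It read 3687, 4272 and 3918 in Luxoid NKT and 1543 and 1623 in stage 1 NKT, against 4497 and 4829.6 in CD4SP. Luxoid NKT thus lay above stage 1 NKT in every array and below CD4SP, 2.50-fold above stage 1 NKT (1.32 ± 0.13 on the log2 scale, limma adjusted p 0.00192). In stage 1 NKT it was 2.95-fold under CD4SP (-1.56 ± 0.15, adjusted p 0.000259), while Luxoid NKT and CD4SP were not called apart.

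Against CD4SP, the same list of 17 held 1 higher and 3 lower genes in Luxoid NKT, and 1 higher and 4 lower in stage 1 NKT. Over all genes tested the shares were 11.3% higher and 5.51% lower in Luxoid NKT, and 10.8% and 4.08% in stage 1 NKT. Lax1, a membrane adaptor that limits receptor signalling, was the higher gene in both. It read 1608, 1729 and 1701 in Luxoid NKT and 1813 and 1516 in stage 1 NKT, against 689 and 737 in CD4SP, a difference of 1.24 ± 0.14 in Luxoid NKT (adjusted p 0.000551) and 1.22 ± 0.15 in stage 1 NKT (adjusted p 0.00129). Grap, an adaptor of the Grb2 family, read 201, 204 and 245 in Luxoid NKT and 237 and 248 in stage 1 NKT, against 463 and 471 in CD4SP. It was 2.16-fold lower in Luxoid NKT and 1.92-fold lower in stage 1 NKT. Sit1, an inhibitory transmembrane adaptor, was 2.89-fold lower in Luxoid NKT and 1.71-fold lower in stage 1 NKT, and the second of these calls was lost without either stage 1 NKT array or either CD4SP array (adjusted p up to 0.158). Trat1, a transmembrane adaptor of the receptor complex, was 1.80-fold lower in Luxoid NKT, a call lost without either CD4SP array (adjusted p up to 0.125). Vav1, an exchange factor bound by SLP-76 and named outside the rule after its value was seen, was the fifth called gene in stage 1 NKT, at -0.57 ± 0.15, and was lost on leaving out any 1 of the stage 1 NKT and CD4SP arrays (adjusted p up to 0.165), with every probe set tested (0.0530) and when its probe sets were averaged (0.171).

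Among 12 tested inhibitors of the pathway, 6 had an unadjusted limma p under 0.05 between Luxoid and stage 1 NKT. Over all genes tested 11.6% did. After adjustment 2 were higher and 0 lower in Luxoid NKT, where 0.901% and 0.653% of all genes tested were. Ubash3a, a suppressor of receptor signalling that lies in the TULA family, read 423, 476 and 290.0 in Luxoid NKT and 133 and 139 in stage 1 NKT, against 555 and 463 in CD4SP. Dgka, which removes diacylglycerol and so opposes Rasgrp1, read 5305, 5152 and 5555 in Luxoid NKT and 3484 and 3242 in stage 1 NKT, against 7521 and 7512 in CD4SP. Stage 1 NKT lay lowest in both genes, with Luxoid NKT above it in every array. Ubash3a was 2.85-fold higher in Luxoid than in stage 1 NKT (1.51 ± 0.21, adjusted p 0.0111), a call lost without either stage 1 NKT array (adjusted p 0.128 and 0.137). Dgka was 1.59-fold higher (0.67 ± 0.13, adjusted p 0.0413), a call lost on leaving out any single array (adjusted p 0.0719 to 0.360) when arrays were blocked by replicate number (adjusted p 0.0641) and with every probe set tested (adjusted p 0.0690).

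Against CD4SP, 2 of the 12 inhibitors were higher and 2 lower in Luxoid NKT, and 1 was higher and 3 lower in stage 1 NKT. The shares over all genes tested were 11.3% and 5.51% in Luxoid NKT, and 10.8% and 4.08% in stage 1 NKT. Cd6, a surface receptor related to CD5, read 1284, 1113 and 1018 in Luxoid NKT and 1231 and 1066 in stage 1 NKT, against 2133 and 2201 in CD4SP. As with Cd5, the 2 NKT groups overlapped and lay under CD4SP, 1.91-fold in Luxoid NKT (adjusted p 0.00367) and 1.89-fold in stage 1 NKT (adjusted p 0.00745; lost without stage 1 NKT replicate 2 or CD4SP replicate 2, adjusted p up to 0.0632). In stage 1 NKT Ubash3a was 3.72-fold lower and Dgka 2.24-fold lower than in CD4SP. In Luxoid NKT Dgka was 1.41-fold lower, a call lost on leaving out any single array (adjusted p 0.0509 to 0.140). The higher genes were Dok1 and Ubash3b in Luxoid NKT, at 0.81 ± 0.15 and 0.59 ± 0.15, and Dok2 in stage 1 NKT, at 0.83 ± 0.16. Dok1 and Dok2 are adaptors that recruit Ras inhibitors, and Ubash3b is a phosphatase that acts on ZAP-70. Dok1 was lost without CD4SP replicate 2 (adjusted p 0.0742), Ubash3b without Luxoid replicate 1 or 2 or either CD4SP array (adjusted p up to 0.194), and Dok2 without either stage 1 NKT array or CD4SP replicate 1 (adjusted p up to 0.0800).

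**Figure D4:**
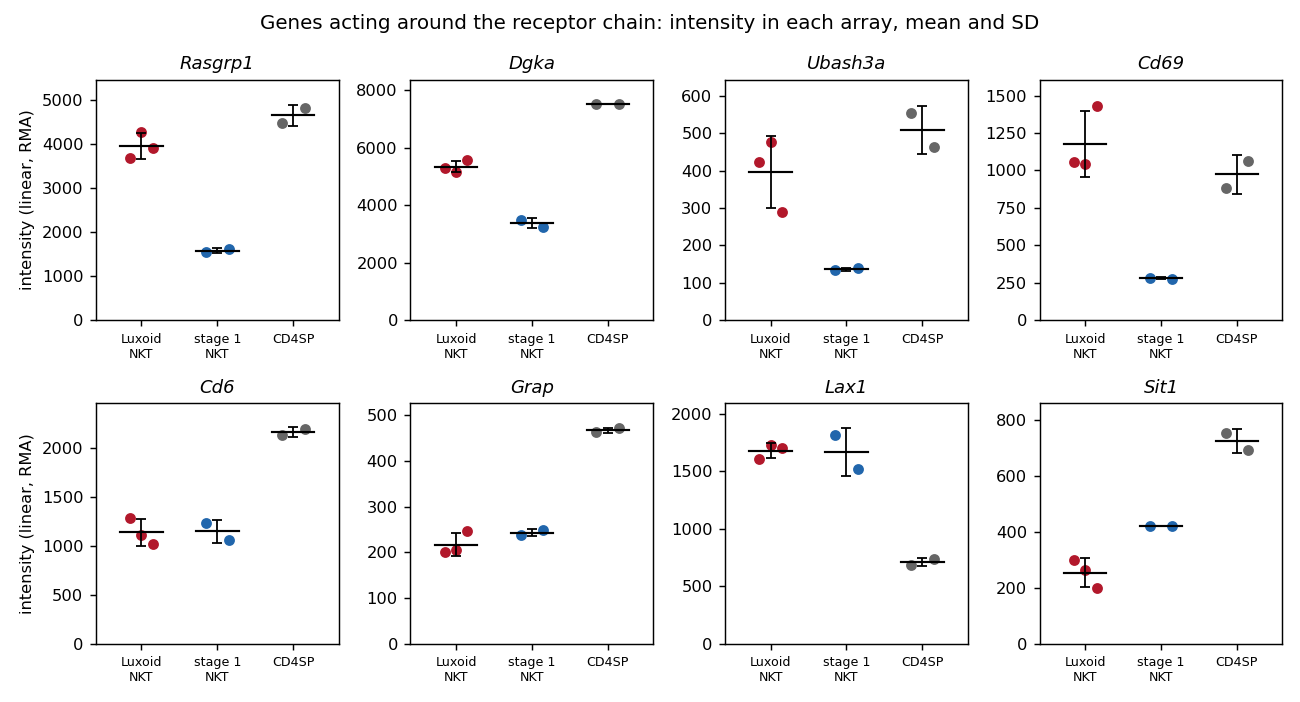
Linear RMA intensity (vertical axis, from 0) of 8 called genes that act around the chain in Luxoid NKT (3 arrays), stage 1 NKT (2) and CD4SP (2); points are arrays, lines group means and bars the SD. Stage 1 NKT is lowest for Rasgrp1, Dgka, Ubash3a and Cd69, while for Cd6 and Grap both NKT groups lie under CD4SP and for Lax1 both lie above it.

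Genes known to be induced by the receptor signal were read as a further list of 10, all tested. It too was chosen with earlier results of these data known, so its median and counts describe the list and are no independent test. Between Luxoid and stage 1 NKT the median difference of the list was 0.51 beside -0.03 over all genes. Luxoid NKT lay wholly above stage 1 NKT in 6 of 10 genes (10.1% of all genes) and wholly below in 0 (16.6%). An unadjusted limma p under 0.05 was seen in 6 of 10, where 11.6% of all genes tested had one. After adjustment 1 was higher and 0 lower in Luxoid NKT, where 0.901% and 0.653% of all genes tested were. The called gene was Cd69, an early activation marker, at 1055, 1039.6 and 1429 in Luxoid NKT and 283 and 277 in stage 1 NKT, against 882 and 1066 in CD4SP. It was 4.15-fold higher in Luxoid than in stage 1 NKT (2.05 ± 0.18, adjusted p 0.000955), with no overlap of the 2 groups. Without the 2 mixed-sex pools, Rasgrp1, Cd69, Ubash3a and Dgka all missed the threshold between Luxoid and stage 1 NKT, with adjusted p of 0.122, 0.0764, 0.0798 and 0.681. Their differences were then 1.36, 1.89, 1.75 and 0.59 on the log2 scale, beside 1.32, 2.05, 1.51 and 0.67 with all arrays, and fewer arrays were fitted. Of 3 tested markers of immature double-positive thymocytes, 1, Cd8a, was called higher in Luxoid NKT in the same comparison, and 2 were not called. Cd8a also read 135 and 148 in CD4SP. The part of immature cells in these 4 differences was not tested.

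Against CD4SP, 4 of the 10 were higher and 2 lower in Luxoid NKT, and 3 were higher and 4 lower in stage 1 NKT. The list thus did not move one way. Over all genes tested the shares were 11.3% and 5.51% in Luxoid NKT, and 10.8% and 4.08% in stage 1 NKT. The orphan receptor gene Nr4a1, an immediate early gene of receptor signalling, read 232, 305 and 225 in Luxoid NKT and 149 and 208 in stage 1 NKT, against 685 and 864 in CD4SP. It was 3.05-fold lower in Luxoid NKT and 4.37-fold lower in stage 1 NKT, and its relative Nr4a3 was 3.31-fold lower (lost without CD4SP replicate 1, adjusted p 0.0976) and 7.39-fold lower. Egr3, a zinc finger factor induced by the same signal, went the other way, at 824, 844 and 976 in Luxoid NKT and 613 and 574 in stage 1 NKT, against 375 and 374 in CD4SP. It was 2.35-fold higher in Luxoid NKT and 1.58-fold higher in stage 1 NKT, the second being lost on leaving out any 1 stage 1 NKT or CD4SP array (adjusted p up to 0.126) and when its probe sets were averaged (adjusted p 0.164). Cd69 was 3.46-fold lower in stage 1 NKT. Egr2 was 2.02-fold higher in Luxoid NKT, and Irf4 1.73-fold higher in stage 1 NKT, a call lost on leaving out any 1 stage 1 NKT or CD4SP array (adjusted p up to 0.158). The remaining calls, named outside the rule after their values were seen, were Irf4 and Nfatc1 higher in Luxoid NKT, and Egr3 and Nfatc1 higher and Egr1 lower in stage 1 NKT. Of these, Nfatc1 in stage 1 NKT was lost on leaving out any 1 stage 1 NKT or CD4SP array and Egr1 on leaving out any 1 of the 7 (adjusted p up to 0.135 and 0.228). The Egr1 call was also lost with no intensity filter (adjusted p 0.0556), with every probe set tested (0.0661) and with median centring (0.0561). Without the 2 mixed-sex pools, Lax1, Grap, Sit1, Cd6, Nr4a1, Nr4a3, Egr2, Egr3, Irf4 and Nfatc1 still passed in Luxoid NKT against CD4SP, and Trat1, Dgka, Dok1 and Ubash3b did not (adjusted p 0.0510 to 0.0996). In stage 1 NKT against CD4SP Rasgrp1, Lax1, Grap, Dgka, Ubash3a, Nr4a1, Nr4a3 and Cd69 still passed, and the other calls of the 3 lists did not (adjusted p 0.0661 to 0.171).

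**Figure D5:**
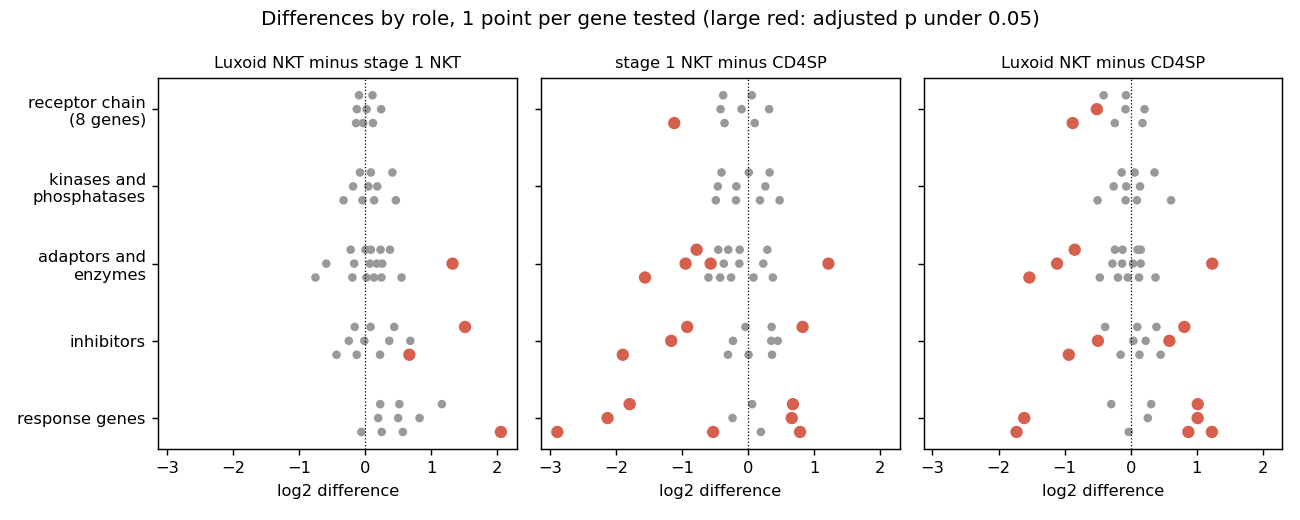
Log2 difference (horizontal axis) of every tested gene of the chain and of the 4 pathway lists in the 3 comparisons, 1 point per gene, with large red points past the threshold. Called genes stand in both directions against CD4SP in the adaptor, inhibitor and response lists, and the kinase and phosphatase list holds 0 called genes in each comparison.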

How the data were processed

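Arrays of 7 samples were analysed: Luxoid NKT (3), stage 1 NKT (2) and CD4SP (2). Per the labels' protocols, RNA from sorted cells was amplified, labelled with biotin and hybridised to single-colour arrays. The deposited values are linear intensities (3.08 to 20875), which the authors made with RMA in Affymetrix Expression Console, per the submitters' processing notes; no version is given in the sources used here. This method subtracts background, equalises the arrays by quantiles and compresses differences of dim probe sets. Array medians were 79.6 to 83.7; sequencing depth does not apply, and the number of arrays limits precision. No 2 arrays were identical.

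The log2 of each deposited intensity was taken. Of 45037 probe sets, 34945 had 1 symbol in GEO's platform annotation, 932 had several and 9160 were not listed; 34741 matched RefSeq GRCm38.p6 by gene ID and 0 symbols changed. The brightest probe set stood for each of 18193 genes, and the 10874 that reached 82.0, the 50th percentile, in 2 or more arrays were tested. limma 3.58.1 in R 4.3.3 (lmFit, eBayes; group means; 4 residual and 4.49 prior degrees of freedom) gave two-sided p-values adjusted by Benjamini-Hochberg, called under 0.05, and was tested on simulated data. Folds are from group geometric means. The samples are labelled as biological replicates.

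The genes and lists were chosen with earlier results of these data known. Named genes were the 9 of the chain, up to 4 called genes per pathway list and comparison with the largest differences, the 2 nearest profiles of each called chain gene, and the label checks. Same-numbered arrays deviated together from their group means in every pair of groups. In a group of 2 arrays the deviations mirror each other, so this cannot show that the samples were paired. The labels do not say what the number marks. The main fit therefore left the number out, and a block by number was 1 of the alternatives. The r of these deviations ran from 0.307 to 0.451, over probe sets of 1 symbol above the filter in 2 or more arrays. The numbers 1 and 2 coincide with the absence and presence of Y-linked signal, so number and sex of the pools cannot be told apart there. With the number as a block, in which Luxoid replicate 3 has no partner and adds nothing to the differences, 2616 genes instead of 1621 were called between stage 1 NKT and CD4SP. Alternatives were the filter, probe set rule, normalization, pseudocount, variance trend, array weights, sex covariate, the block and leaving out each array. Leaving out the mixed-sex pools was added after seeing the data.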

Additional observations from a re-analysis of the deposited data

How the results depend on the processing

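Cd5 passed the threshold against CD4SP in both NKT groups under each of 18 other settings. Lat in Luxoid NKT against CD4SP passed under the 11 that kept all arrays, and 0 chain genes were called between Luxoid and stage 1 NKT under any of the 18. With the replicate block 2616 genes instead of 1621 were called between stage 1 NKT and CD4SP. Among chain genes and the pathway genes called with the main settings, only the Dgka call between Luxoid and stage 1 NKT changed. Whether named genes outside these gained or lost a call was not followed. A trend on mean level called 2 chain genes between stage 1 NKT and CD4SP, adding Lat (adjusted p 0.0311), and called Cd247 in Luxoid NKT against CD4SP (adjusted p 0.0454). Testing every probe set called 2876 probe sets instead of 1831 genes between Luxoid NKT and CD4SP, as more features were tested. Leaving out 1 array at a time gave 55 to 178 called genes between Luxoid and stage 1 NKT (55 and 64 without a stage 1 NKT array), 643 to 1846 between stage 1 NKT and CD4SP, 866 to 1726 between Luxoid NKT and CD4SP, and 1 to 1 chain genes in the last, Cd5. Without the mixed-sex pools 10, 520 and 918 genes were called between Luxoid and stage 1 NKT, stage 1 NKT and CD4SP, and Luxoid NKT and CD4SP, with 1 chain gene in the last; fewer arrays were fitted. Small differences changed sign. With the replicate block, Cd3d was 0.022 and Cd247 0.036 between Luxoid and stage 1 NKT, and Cd3d 0.080 between Luxoid NKT and CD4SP. Without the mixed-sex pools Cd3g was -0.0092, Lat 0.0081 and Cd247 0.018 between Luxoid and stage 1 NKT, and Cd3d 0.080 between Luxoid NKT and CD4SP. Leaving out 1 array gave -0.063 to 0.10 for Cd3g, -0.23 to 0.022 for Cd3d and -0.12 to 0.036 for Cd247 between Luxoid and stage 1 NKT, -0.0022 to 0.12 for Cd3d and -0.079 to 0.28 for Zap70 between stage 1 NKT and CD4SP, and -0.17 to 0.080 for Cd3d between Luxoid NKT and CD4SP. The cause was not tested.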
